A study of Mus musculus with 18 samples.

Results

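The IFIT family was followed in bone marrow-derived macrophages (BMDMs) given dying cells or CpG DNA. The members were taken by gene name from the deposited table and were *Ifit1*, *Ifit2*, *Ifit3*, *Ifit3b* and *Ifit1bl1*, 5 of 20615 genes, all of which passed the filter on low counts that left 15789. RNA-seq was done on 18 BMDM samples in 6 groups of 3, from C57BL/6 (B6) mice and from C57BL/6.NOD-*Aec1Aec2* mice, called SjSS here, a Sjögren's syndrome (SjS) model that carries the NOD intervals *Aec1* and *Aec2* on the B6 background. BMDMs of both strains came from females of 7 to 12 weeks and were grown with L929 conditioned medium as a source of M-CSF. Control BMDMs were untreated. AC BMDMs were given apoptotic cells, which were thymocytes killed with dexamethasone, at 5 per BMDM for 2 h and were then washed and kept for 3 h by the labels and for 4 h by the study's methods. CpG BMDMs were given the TLR9 agonist CpG at 1 µM for 6 h. The BMDMs are cultured cells without the other cells of the gland, and the strain of the thymocytes given in the sequenced samples was not stated in the sources used here. The BMDMs came from 3 mice per strain, and those sources do not say whether same-numbered samples of a strain share a mouse. ACs and CpG differ in kind and duration, so their values are set side by side without a test between them.

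IFIT genes are induced by interferon and encode cytoplasmic proteins built of tetratricopeptide repeats that bind RNA and hold back translation. The IFIT1 protein binds RNA whose cap lacks the methyl group that host enzymes add, IFIT2 and IFIT3 form complexes with each other and with other family members, and the genes are widely used as a readout of type I interferon signalling. In that pathway interferon binds the IFNAR receptor, the kinases JAK1 and TYK2 are activated, and a complex that holds IRF9 binds the interferon-stimulated response element (ISRE) of its target genes. IRF3, activated by sensors of nucleic acid, can also induce IFIT genes without interferon.

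The members lay together on chromosome 19 of mm10 within 99316 bases, in the order *Ifit2* (plus strand, 34550694 to 34576420), *Ifit3* (plus, 34583531 to 34588732), *Ifit1bl1* (minus, 34592888 to 34601969), *Ifit3b* (plus, 34607970 to 34613402) and *Ifit1* (plus, 34640871 to 34650010). *Ifit1bl2* (minus, 34617049 to 34640744), a further gene of the family that is not among the members, ended 127 bases before *Ifit1*, so that both genes start from the same short gap and run apart. The promoter windows of RefSeq (GRCm38.p6, 250 bases before to 50 bases after a start) were searched on both strands for the core of an ISRE, taken as GAAA, 2 bases of any kind and GAAA, which reads TTTC, 2 bases and TTTC on the other strand. It was found in 1131 of 32851 windows (3.44%), in at least 1 window of 1079 of 27025 genes (3.99%), and in at least 1 window of 4 of the 5 members. The stretches that hold it are printed because the members moved together in these samples; capitals mark the motif, and each is given 5′ to 3′ on the strand of its gene.
*Ifit1*, chr19:34640744-34640870, plus strand, the whole gap shared with *Ifit1bl2*: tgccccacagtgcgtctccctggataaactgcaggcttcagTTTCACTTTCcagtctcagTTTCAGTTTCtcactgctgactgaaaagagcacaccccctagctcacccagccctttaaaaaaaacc
*Ifit3*, chr19:34583329-34583528, plus strand: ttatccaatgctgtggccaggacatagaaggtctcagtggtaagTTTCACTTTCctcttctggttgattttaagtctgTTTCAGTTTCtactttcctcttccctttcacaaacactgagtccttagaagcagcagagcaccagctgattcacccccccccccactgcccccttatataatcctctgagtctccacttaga
*Ifit3b*, chr19:34607757-34607956, plus strand: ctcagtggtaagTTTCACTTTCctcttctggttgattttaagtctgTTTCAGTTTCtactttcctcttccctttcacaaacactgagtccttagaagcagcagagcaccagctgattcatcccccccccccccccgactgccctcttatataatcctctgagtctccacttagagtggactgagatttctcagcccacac
*Ifit1bl1*, chr19:34601970-34602169, minus strand: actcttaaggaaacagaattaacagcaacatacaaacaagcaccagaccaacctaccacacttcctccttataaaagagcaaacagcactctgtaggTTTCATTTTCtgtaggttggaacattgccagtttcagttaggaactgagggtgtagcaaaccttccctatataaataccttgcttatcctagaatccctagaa

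*Ifit1* held 2 copies of the motif, 104 and 85 bases before its RefSeq start. The copies of *Ifit3* began 156 and 122 bases before the start and those of *Ifit3b* 188 and 154 bases before it. *Ifit3* and *Ifit3b* carried the same letters with the same spacing, and their printed stretches were identical at 166 of 168 aligned bases. *Ifit1bl1* held 1 copy in the window of the deposited start, 104 bases before it, and 1 copy in its other RefSeq window, 23 bases before that start. These letters were not in either of the RefSeq windows of *Ifit2*, and a match or its lack in such a window says nothing about which factors bind.

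Library totals ran from 30688336 to 57139662 estimated counts, with a median of 47912525. All 8 macrophage markers were measured in each group, with summed levels of 15105 to 23748 CPM, the usual normalised read count, taken here relative to the TMM scaled library total. Of 14 thymocyte and T cell markers, the summed level without *Cd4*, which macrophages can also express, was 0.560 to 1.25 CPM in control BMDMs of both strains. With ACs it was 1.71 to 2.36 CPM in B6 BMDMs and 1.57 to 2.25 CPM in SjSS BMDMs. The thymocyte gene *Rag1* had 7 to 9 counts per sample in AC treated B6, 1 in each AC treated SjSS sample and 0 in all control and CpG samples. *Dntt*, another thymocyte gene, had 4 to 8 counts per sample in AC treated B6 and 0 to 1 in AC treated SjSS. It had 0 in control and CpG treated B6, 0 to 2 in control SjSS and 0 to 3 in CpG treated SjSS samples. The 5 fibroblast markers summed to 38.6 to 133 CPM in B6 and to 148 to 232 CPM in SjSS samples, so they differed between the strains in every condition, and their part in the strain differences below was not tested. In bulk RNA a change in the number of cells that express a gene and a change in its level per cell cannot be told apart.

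Without treatment, every IFIT gene was higher in SjSS than in B6 BMDMs by about the same factor, but none passed both thresholds of the test. A gene was called where its Benjamini-Hochberg adjusted p in edgeR's quasi-likelihood test was under 0.05 and its log2 fold change was over 1.3 in size. *Ifit2*, the most counted member, was at 36.8, 34.6 and 29.7 CPM in control B6 and at 68.7, 97.5 and 57.1 in control SjSS BMDMs. *Ifit3* was at 28.8, 27.8 and 27.0 against 52.9, 83.7 and 58.9 CPM. *Ifit1* was at 11.4, 9.93 and 8.67 against 20.96, 30.8 and 17.3 CPM. For each of these genes the lowest SjSS sample lay above the highest B6 sample, and SjSS replicate 2 was the highest. *Ifit3b*, the near copy of *Ifit3*, was at 6.44, 5.51 and 5.74 CPM in B6 and at 10.997, 17.6 and 13.6 in SjSS. *Ifit1bl1*, an *Ifit1*-like gene on the opposite strand, was barely expressed, at 0.544, 0.605 and 0.266 CPM in B6 and 0.774, 1.60 and 0.852 in SjSS. Here too the groups did not overlap. The share of all genes tested whose groups did not overlap was not counted, here or for the treatments below.

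The log2 strain differences without treatment were 1.19 ± 0.24 (SE) for *Ifit1*, 1.14 ± 0.25 for *Ifit2*, 1.22 ± 0.24 for *Ifit3*, 1.23 ± 0.25 for *Ifit3b* and 1.11 ± 0.32 for *Ifit1bl1*, with adjusted p of 0.00153 to 0.0213. By adjusted p alone 5 of 5 members were higher, against 9.04% of all genes tested, and with the fold threshold 0 of 5 were called, against 2.01%. The SjSS control sample with the highest IFIT levels, replicate 2, also had the lowest library total of the 18. Without it the differences were 0.93 for *Ifit1*, 0.90 for *Ifit2*, 1.01 for *Ifit3*, 1.06 for *Ifit3b* and 0.79 for *Ifit1bl1*, whose adjusted p was then 0.101, so that 4 of 5 members passed by adjusted p alone.

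Apoptotic cells raised all 5 genes in both strains, and far more in SjSS BMDMs. In AC treated B6 BMDMs *Ifit1* was at 255, 251 and 271 CPM, and in AC treated SjSS BMDMs at 4619, 4634 and 4525. *Ifit2* was at 299.9, 296 and 330 CPM in B6 and at 8235, 7532 and 8092 in SjSS. *Ifit3* was at 304, 295 and 303 against 3988, 4113 and 4159 CPM. The samples of a strain lay close together after ACs, and every AC sample was above every control sample of its strain. *Ifit3b* reached 71.7, 69.03 and 68.5 CPM in B6 and 917, 1015 and 1036 in SjSS. *Ifit1bl1* reached 9.83, 8.50 and 8.02 CPM in B6 and 324, 326 and 318 in SjSS. The gene that was close to silent in control BMDMs was thus above the level of each other member's control samples once SjSS BMDMs had met ACs.

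**Figure D1:**
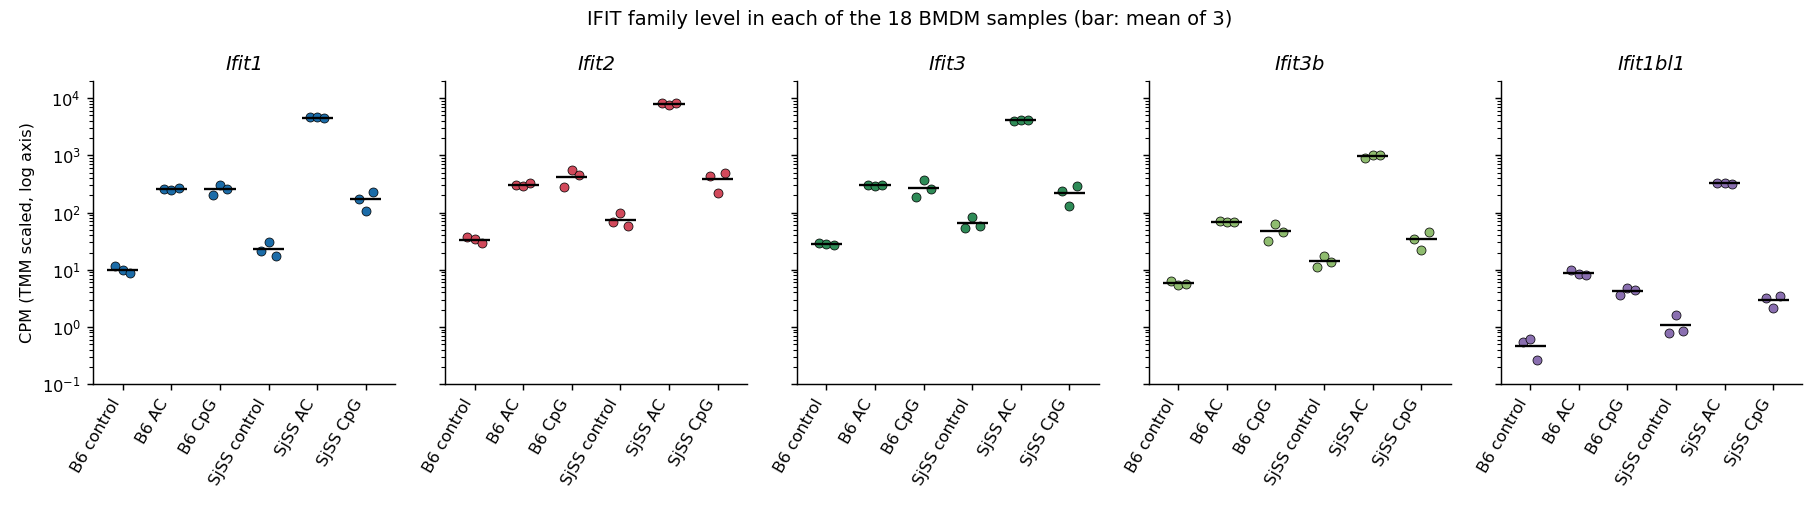
Level of each IFIT gene (CPM, log axis) in the 18 BMDM samples by strain and treatment; points are samples and bars the mean of 3. AC treated SjSS BMDMs are the highest group for every gene, with *Ifit2* at 7532 to 8235 CPM, and the AC treated B6 and both CpG groups lie between them and the controls.

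In B6 the AC response, as log2 fold change ± SE, was 4.69 ± 0.26 for *Ifit1* (adjusted p = 8.63e-11), 4.22 ± 0.23 for *Ifit1bl1* (adjusted p = 6.44e-11) and 3.56 ± 0.24 for *Ifit3b* (adjusted p = 1.58e-09). It was 3.43 ± 0.26 for *Ifit3* (adjusted p = 5.01e-09) and 3.19 ± 0.26 for *Ifit2* (adjusted p = 2.02e-08). All 5 were called higher, against 2.43% of genes tested. In SjSS all 5 were called higher against 7.09%, with log2 fold changes of 8.32 ± 0.19 for *Ifit1bl1*, 7.65 ± 0.29 for *Ifit1*, 6.74 ± 0.31 for *Ifit2*, 6.15 ± 0.26 for *Ifit3b* and 5.97 ± 0.28 for *Ifit3*, with adjusted p of at most 1.09e-12. On a linear scale these were 319-fold for *Ifit1bl1*, 201-fold for *Ifit1* and 62.9-fold for *Ifit3*. *Ifit1bl1* had the 16th largest increase of all genes tested in SjSS, and *Ifit1* the 25th.

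The 5 genes together took 0.00775% to 0.00918% of all counts in control B6 samples and 0.0168% to 0.0255% in control SjSS samples. In AC treated B6 samples they took 0.0939% to 0.1003%, and in AC treated SjSS samples 1.47% to 1.51%. *Ifit2* ranked between 4779 and 5431 among genes by count in control B6, between 444 and 517 in AC treated B6, and at 9 or 10 in AC treated SjSS BMDMs. *Ifit1* ranked at 21 or 22 and *Ifit3* at 23 or 24 in that last group, so 3 members of the family were among the most counted genes.

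The AC response itself was larger in SjSS than in B6 for each member when the interaction of strain and AC was tested. The difference of the log2 responses was 4.09 ± 0.41 for *Ifit1bl1* (adjusted p = 2.03e-07) and 3.55 ± 0.35 for *Ifit2* (adjusted p = 2.17e-07). It was 2.96 ± 0.32 for *Ifit1* (adjusted p = 7.34e-07), 2.59 ± 0.32 for *Ifit3b* (adjusted p = 3.90e-06) and 2.54 ± 0.33 for *Ifit3* (adjusted p = 6.99e-06). All 5 were called, against 4.76% of genes called higher in this comparison. Between the AC treated groups the log2 strain differences were 5.20 ± 0.15 for *Ifit1bl1*, 4.69 ± 0.28 for *Ifit2*, 4.15 ± 0.24 for *Ifit1*, 3.83 ± 0.23 for *Ifit3b* and 3.77 ± 0.25 for *Ifit3*, and all 5 were called, against 6.24%. These 2 comparisons share the AC samples and are not separate evidence. Of the 14 T-lineage markers 3 passed the filter on low counts, of which 0 were called with ACs in B6 and 1, *Lck*, in SjSS. *Cd4* was called higher for the interaction (1.71) and between the AC treated groups (1.97). Of the 3 neutrophil markers measured, *S100a9* (6.42) and *Camp* (5.79) were called higher for the interaction, at means of 0.084 and 0.30 CPM in AC treated SjSS. *Camp* was also called higher between the AC treated groups (1.73). The part of these markers in the AC responses and in the strain differences was not tested. The 5 dendritic cell markers summed to 2.52 to 3.57 CPM in AC treated SjSS samples and to 0.801 to 2.22 CPM in all others. Most of the sum in AC treated SjSS was *Xcr1*, with a mean of 2.13 CPM against 0.28 in control SjSS. *Ccr7* was at 0.23 CPM in AC treated and 0.35 CPM in control SjSS, and was not called there. With ACs in B6 it was called lower (-3.09), to a mean of 0.02 CPM. Between the AC treated groups *Ccr7* (3.34) and *Xcr1* (2.32) were both called higher in SjSS. The part of the dendritic cell markers in the result was not tested.

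CpG raised the IFIT genes as well, with more spread between samples than ACs. In CpG treated B6 BMDMs *Ifit1* was at 200.3, 306 and 254 CPM, and in CpG treated SjSS BMDMs at 174, 105 and 234. *Ifit2* was at 281, 549.7 and 447 CPM in B6 and at 436, 223 and 497 in SjSS. *Ifit3* was at 184, 368 and 255 against 236, 132 and 294 CPM. B6 replicate 1 was the lowest of its group and SjSS replicate 2 the lowest of its own for these genes, and the strains overlapped. *Ifit3b* was at 32.3, 64.0 and 46.4 CPM in B6 and at 34.0, 22.4 and 45.6 in SjSS. *Ifit1bl1* was at 3.55, 4.87 and 4.43 CPM in B6 and at 3.19, 2.10 and 3.43 in SjSS, where the highest SjSS sample lay below the lowest B6 sample.

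In B6 the log2 CpG responses were 4.66 ± 0.26 for *Ifit1*, 3.66 ± 0.27 for *Ifit2*, 3.27 ± 0.25 for *Ifit3*, 3.18 ± 0.25 for *Ifit1bl1* and 3.00 ± 0.24 for *Ifit3b*, with adjusted p of at most 2.92e-09. All 5 were called, against 5.86% of genes called higher. In SjSS they were 2.90 ± 0.23 for *Ifit1*, 2.38 ± 0.25 for *Ifit2*, 1.76 ± 0.24 for *Ifit3* and 1.53 ± 0.24 for *Ifit1bl1*, with adjusted p of at most 2.00e-05, and 4 of 5 were called, against 4.81%. *Ifit3b* had a log2 fold change of 1.29 ± 0.23 (adjusted p = 7.72e-05), just under the fold threshold.

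**Figure D2:**
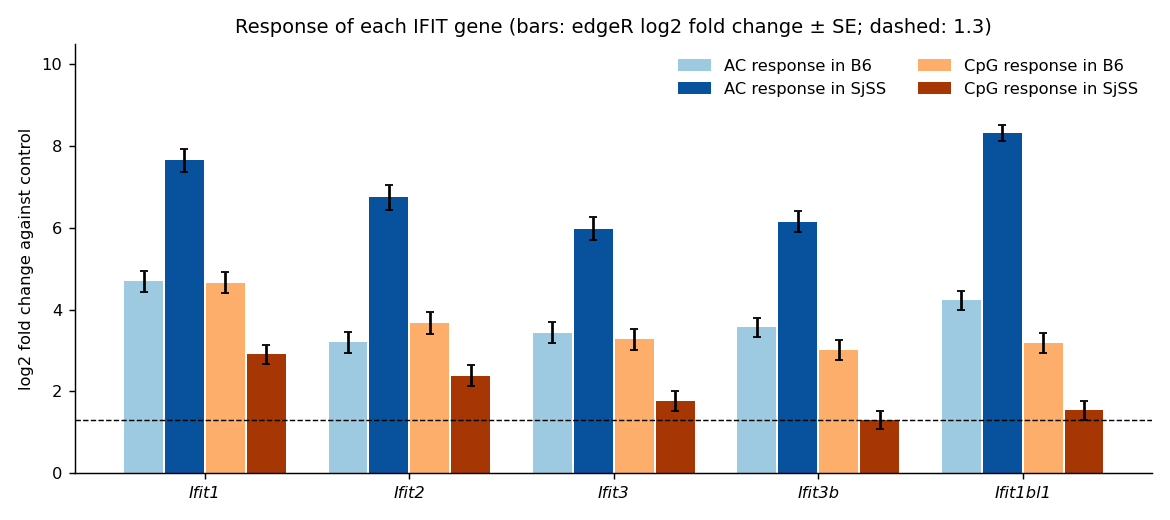
Log2 fold change against control (± SE, edgeR) of each IFIT gene after ACs and after CpG in B6 and in SjSS BMDMs; the dashed line is the fold threshold of 1.3. The AC response in SjSS is the tallest bar for every gene (5.97 to 8.32) and the CpG response in SjSS the shortest (1.29 to 2.90).

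The CpG response was smaller in SjSS than in B6, the opposite order to the AC response. The interaction subtracts the strain difference without treatment from that with CpG, whose medians over the members were 1.19 and -0.48. The higher control levels in SjSS thus entered it, as well as the levels with CpG. The interaction of strain and CpG was -1.76 ± 0.32 for *Ifit1* (adjusted p = 0.00280), -1.71 ± 0.33 for *Ifit3b* (adjusted p = 0.00386), -1.65 ± 0.37 for *Ifit1bl1* (adjusted p = 0.0125) and -1.51 ± 0.33 for *Ifit3* (adjusted p = 0.0106). These 4 were called lower, against 0.329% of genes tested. *Ifit2* was at -1.28 ± 0.35 (adjusted p = 0.0346), short of the fold threshold. *Ifit3* was also short of it without SjSS control replicate 2 (-1.29), without CpG treated B6 replicate 2 (-1.21) or without CpG treated SjSS replicate 2 (-1.24), and *Ifit1bl1* had an adjusted p of 0.0524 when only the 4 groups concerned were fitted. The 3 neutrophil markers measured summed to 11.03 to 12.7 CPM in CpG treated B6 and 5.55 to 5.96 CPM in CpG treated SjSS samples, against 2.50 to 4.90 CPM in the controls, and their part in this difference was not tested.

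The levels reached with CpG were not called different between the strains for any member. Counted by both thresholds 0 of 5 were called, against 2.61% of genes tested, also 0 by DESeq2, although 3 had an unadjusted p under 0.05 in edgeR. The log2 difference of SjSS against B6 was -0.57 for *Ifit1* (95% interval -1.03 to -0.10, adjusted p = 0.0708) and -0.54 for *Ifit1bl1* (-0.95 to -0.13, adjusted p = 0.0502). It was -0.48 for *Ifit3b* (-0.95 to -0.01, adjusted p = 0.129), -0.29 for *Ifit3* (-0.79 to 0.21, adjusted p = 0.430) and -0.14 for *Ifit2* (-0.67 to 0.38, adjusted p = 0.736). These intervals reach a log2 difference of -1.03 for *Ifit1*, and do not show equal levels.

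The IFIT genes did not keep fixed proportions by the ratios of counts within a sample, which do not depend on scaling. Within each strain the ratio of *Ifit1* to *Ifit2* set the treatments apart, and that of *Ifit1bl1* to *Ifit1* did so only in part. For 100 counts of *Ifit2* there were 28.7 to 31.04 counts of *Ifit1* in control B6 and 30.3 to 31.7 in control SjSS samples. With ACs the ratio was 82.2 to 85.2 in B6 and 55.9 to 61.5 in SjSS samples. It was 55.6 to 71.3 in CpG treated B6 and 39.9 to 47.2 in CpG treated SjSS samples. Controls of both strains thus had the same ratio to within a few counts, every treatment raised it, and within each treatment it was higher in every B6 sample than in every SjSS sample.

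*Ifit1bl1* followed another order. For 100 counts of *Ifit1* there were 3.07 to 6.09 counts of *Ifit1bl1* in control B6 and 3.69 to 5.18 in control SjSS samples. After ACs there were 2.96 to 3.85 in B6 and 7.01 to 7.04 in SjSS samples. After CpG there were 1.59 to 1.77 in B6 and 1.47 to 2.00 in SjSS samples. *Ifit1bl1* therefore stood highest relative to *Ifit1* in AC treated SjSS BMDMs and lowest after CpG in both strains. The control ratios rest on 15 to 54 counts of *Ifit1bl1* per sample. An exact permutation test of 3 samples against 3 cannot reach a p below 0.10, so these ratios are given without a test.

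**Figure D3:**
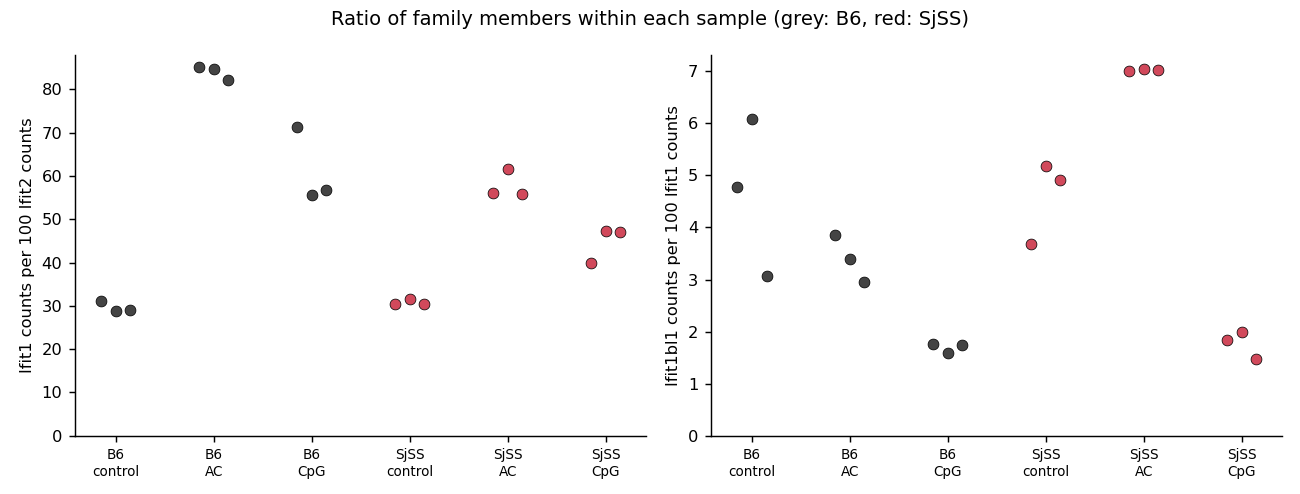
Counts of *Ifit1* per 100 counts of *Ifit2* (left) and of *Ifit1bl1* per 100 counts of *Ifit1* (right) in each of the 18 samples, with both axes from 0. On the left the controls of both strains lie at 28.7 to 31.7 and AC treated B6 samples at 82.2 to 85.2; on the right AC treated SjSS samples lie at 7.01 to 7.04.

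*Ifit3* and *Ifit3b* are the pair whose reads are hardest to tell apart. Their coding sequences in GENCODE were 99.1% identical over 1209 bases, and 521 of the 1646 windows of 100 bases, about the length of a read, in *Ifit3* (31.7%) also occurred in *Ifit3b*, which is 27.4% of the windows of *Ifit3b*. The authors' E/M tool divides such reads by estimate, so the split between these genes is uncertain. The counts of *Ifit3b* per 100 of *Ifit3* were 19.8 to 22.4 in control B6 and 20.8 to 23.0 in control SjSS samples. After ACs they were 22.6 to 23.6 in B6 and 23.0 to 24.9 in SjSS samples, and after CpG they were 17.4 to 18.2 in B6 and 14.4 to 16.998 in SjSS samples. The ratio was thus lower after CpG than in any control or AC sample, and close to constant between the strains without treatment. *Ifit1* and *Ifit1bl1* were 78.6% identical and shared no window of this length, and the other pairs of members were 62.3% to 69.2% identical and shared none. When *Ifit3* and *Ifit3b* were summed before the fit, the log2 responses were 3.45 to ACs in B6, 6.01 to ACs in SjSS, 3.23 to CpG in B6 and 1.69 to CpG in SjSS.

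Per kilobase of exon, *Ifit3* had the highest mean level of the family in each group. The length joined all annotated exons of a gene, 3927 bases for *Ifit2* and 1745 for *Ifit3*. Which transcripts were expressed was not tested, and the *Ifit3* level rests on the uncertain split with *Ifit3b*. In control B6 BMDMs the levels were 16.0 ± 0.51 CPM per kb (SD, n = 3) for *Ifit3*, 8.58 ± 0.92 for *Ifit2*, 3.77 ± 0.52 for *Ifit1*, 2.95 ± 0.24 for *Ifit3b* and 0.209 ± 0.080 for *Ifit1bl1*, where *Ifit1* and *Ifit3b* were separated only by a small margin. In AC treated SjSS BMDMs they were 2342 ± 50.7 for *Ifit3*, 2025 ± 94.6 for *Ifit2*, 1729 ± 22.2 for *Ifit1*, 495 ± 31.7 for *Ifit3b* and 143 ± 1.83 for *Ifit1bl1*, and no neighbours in this order overlapped. The order of the means was the same in control SjSS and in both CpG groups. There the samples of *Ifit1* and *Ifit3b* overlapped in control SjSS, and in each CpG group those of *Ifit3* overlapped *Ifit2* and those of *Ifit2* overlapped *Ifit1*. Those overlaps are over samples, while the genes were measured in the same samples. As a share of the 5 members' summed level per kb, *Ifit3* took 38.4% to 42.2% in CpG treated B6 and *Ifit2* 26.5% to 29.9%, with *Ifit1* at 23.0% to 27.9%. In CpG treated SjSS the shares were 40.9% to 41.3%, 30.8% to 33.6% and 19.8% to 21.6%, without overlap. In AC treated B6 BMDMs *Ifit1* (97.6 ± 3.96) stood above *Ifit2* (78.6 ± 4.68), below *Ifit3* (172 ± 2.82).

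*Ifit1bl2*, which shares its start region with *Ifit1*, stayed near the limit of detection. Control samples of both strains had 0 to 8 counts of it. With ACs there were 15 to 17 counts per B6 sample and 61 to 121 per SjSS sample, and with CpG 38 to 55 and 7 to 30. Its log2 AC response was 2.68 ± 0.65 in B6 (adjusted p = 0.00286) and 4.23 ± 0.52 in SjSS, and the difference of these did not pass the test (1.55, adjusted p = 0.236). Its CpG response was 4.40 ± 0.59 in B6 and 1.71 ± 0.59 in SjSS. After CpG it was lower in SjSS than in B6 (log2 difference -1.60, adjusted p = 0.0180). In B6 it was thus counted more after CpG than after ACs, while *Ifit1bl1* was counted more after ACs. *Ifit1* and *Ifit1bl2* shared 84 windows of 100 bases (3.29% of those of *Ifit1*). The 3 AC treated SjSS samples together held 600815 counts of *Ifit1* and 266 of *Ifit1bl2*. Some or even all of the *Ifit1bl2* counts could therefore belong to *Ifit1*, and their part in the *Ifit1bl2* responses was not tested.

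The genes beside the cluster did not share one response. Of the tested neighbours, *Ch25h*, an interferon-induced enzyme that makes 25-hydroxycholesterol, had 10, 12 and 4 counts in control SjSS and 617, 1134 and 953 in AC treated SjSS samples (log2 fold change 6.77, adjusted p = 4.38e-11), and in B6 it was at 0.65 (adjusted p = 0.208). Its strain and AC interaction of 6.12 (adjusted p = 1.88e-07) was larger than that of any IFIT gene, while without treatment it was lower in SjSS than in B6 (-1.82, adjusted p = 0.0231), the opposite of the IFIT genes. *Fas*, the death receptor, rose by 1.78 with ACs in B6 and by 3.24 in SjSS on the log2 scale. *Lipa*, the lysosomal acid lipase that lies next to *Ifit2*, had a log2 fold change of 0.19 with ACs in SjSS and was not called. *Pank1*, a kinase of coenzyme A synthesis on the other side, fell with ACs in SjSS (log2 fold change -1.78) and was not called in B6 (-0.72).

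Among the genes that lead from ligand to IFIT genes, the receptor and kinase genes were not called with ACs in either strain. In SjSS most of the factors rose, and the ligand and the feedback inhibitors were called higher in both strains. Of the 12 genes of the type I interferon pathway that are reported, 4 were called higher and 0 lower with ACs in B6 and 7 higher and 0 lower in SjSS. The median log2 fold change of the list was 0.83 in B6 and 2.09 in SjSS, beside medians of all genes within 0.05 of 0, and that of the IFIT members was 3.56 and 6.74. *Ifnb1*, the gene of interferon beta, had 0, 0 and 5 counts in control B6 and 5, 16 and 5 in AC treated B6 samples. It had 7, 6 and 2 counts in control SjSS and 219, 259 and 216 in AC treated SjSS samples. The ligand was thus rarely counted outside AC treated SjSS BMDMs, where its log2 fold change was 5.61 ± 0.52. On these few counts it was also called higher with ACs in B6, with a log2 fold change of 2.44. The interaction of strain and AC missed the threshold (3.17, adjusted p = 0.0640). After CpG, *Ifnb1* had 1 to 7 counts in the samples of both strains and was not called.

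The receptor genes *Ifnar1* (-0.34 in B6, -0.03 in SjSS) and *Ifnar2* (0.02 and 0.20) and the kinase genes *Jak1* (-0.05 and 0.31) and *Tyk2* (0.02 and 0.75) were called in neither strain with ACs. Of the factors that act below the receptor, *Stat2* had log2 fold changes of 1.01 in B6 and 2.78 in SjSS and *Irf9* of 0.86 and 1.39, and each was called in SjSS and short of the fold threshold in B6. The interaction was called for *Stat2* (1.77) and not for *Irf9* (0.53). *Irf7*, the factor that amplifies interferon production, rose by 2.57 ± 0.19 in B6 and by 2.81 ± 0.19 in SjSS, and its interaction was 0.24 (95% interval -0.32 to 0.81, adjusted p = 0.505), an interval that lies below the interaction of each IFIT member. *Irf1* was at 0.81 in B6, short of the fold threshold, and rose by 4.12 in SjSS. The feedback inhibitors rose in both strains, *Usp18* by 2.91 and 5.15 and *Socs1* by 1.95 and 7.31. *Usp18* was also the single pathway gene called higher in SjSS without treatment (1.54) and the single one called for the CpG interaction (-2.07), in the same directions as the IFIT genes.

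Most of the 14 other antiviral genes of the list rose with the IFIT genes. With ACs 11 were called higher in B6 and 13 in SjSS, with CpG 12 in B6 and 10 in SjSS, and none was called lower in these comparisons. *Cmpk2* (4.35 in B6, 8.32 in SjSS), *Rsad2*, which encodes viperin (4.51 and 7.98), *Mx1*, a dynamin-like GTPase (3.58 and 6.73), and *Oasl1* (5.20 and 7.12) had the largest AC responses together with *Mx2* (4.22 and 6.84). For the strain and AC interaction 9 were called higher, and for the strain and CpG interaction 4 were called lower (*Cmpk2*, *Mx2*, *Oasl1* and *Rsad2*). Without treatment 1 was called higher in SjSS (*Oasl1*, 1.78) and 11 more passed the adjusted p alone.

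Of 8 sensors of RNA and DNA, 1 was called higher with ACs in B6 (*Ifih1*, just past the fold threshold, and short of it with the replicate number as a block or with no filter on low counts) and 6 in SjSS, among them *Ifih1* (4.64), *Zbp1* (3.43) and *Ddx58*, the gene of RIG-I (3.20). With CpG 4 were called higher and 1 lower in B6, the latter being *Tlr9*, the receptor of CpG (-1.85), and 2 higher in SjSS, where *Tlr9* was at -0.88. Of 6 genes of the interferon gamma list, 2 were called with ACs in B6 and 4 in SjSS, where *Gbp2* had a log2 fold change of 5.74 against 0.98 in B6. Of the 6 genes of cap methylation and of translation factor eIF3, the machinery on which IFIT proteins act, 0 were called in each of the 4 responses. Of the 15789 genes tested, 383 to 1119 (2.43% to 7.09%) were called higher and 322 to 1086 lower. A count of 0 of 6 thus does not set these genes apart. By adjusted p alone 3 passed with ACs in B6, 4 with ACs in SjSS, 4 with CpG in B6 and 5 with CpG in SjSS. Of all genes tested, 5342, 7114, 7136 and 7098 passed it in these responses without being called. *Cmtr1*, which adds the cap methyl group that IFIT1 senses, was closest at 1.17 with ACs in SjSS and 0.40 in B6.

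**Figure D4:**
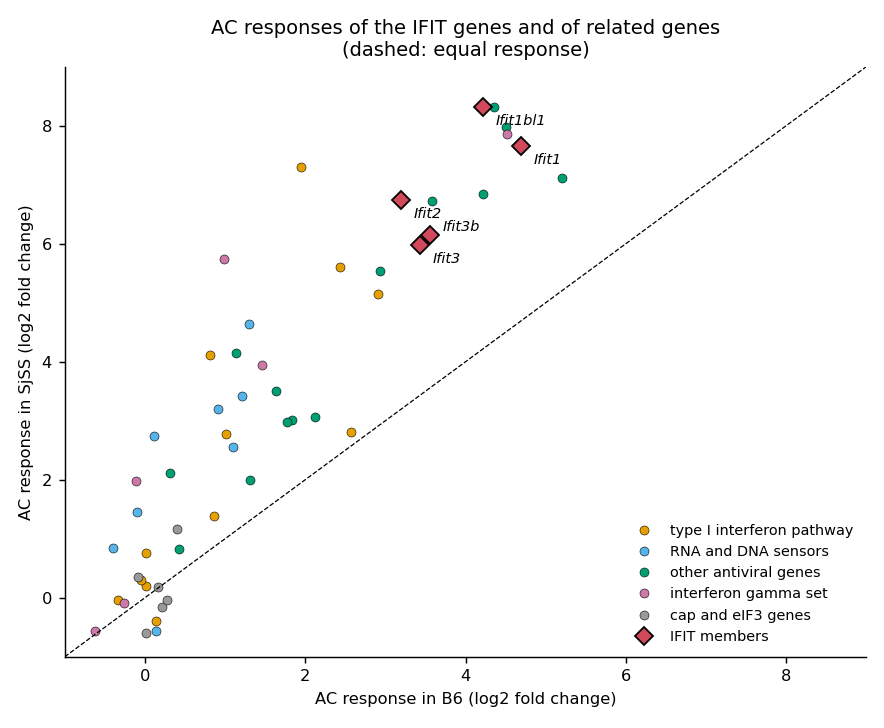
AC response in SjSS against AC response in B6 (both log2 fold changes) for the IFIT members and the genes of 5 related lists; the dashed line marks equal responses. The IFIT members lie above the line with most of the antiviral genes, at 3.19 to 4.69 in B6 and 5.97 to 8.32 in SjSS, and the cap and eIF3 genes lie between -0.59 and 1.17 on the SjSS axis.

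Across the 18 samples the 5 members had Pearson correlations of log2 CPM between 0.966 (*Ifit1* with *Ifit1bl1*) and 0.995 (*Ifit3* with *Ifit3b*). The gene outside the family whose pattern was most like that of *Ifit1* was *Mx1* (r = 0.996), for *Ifit2* it was *Tgtp2*, an interferon-induced GTPase (r = 0.996), for *Ifit3* *Cmpk2* (r = 0.997), and for *Ifit3b* and *Ifit1bl1* *Rsad2* (r = 0.993 and 0.988). *Cmpk2* was among the 5 most similar genes of each member. These values describe the order of 6 groups, of which AC treated SjSS lies far from the others, and samples of a group are not independent points. The Ifitm genes share only the start of the name and encode membrane proteins, some of which block viral entry. *Ifitm3* had log2 AC responses of 1.19 in B6 (not called) and 1.52 in SjSS (called), and *Ifitm2* of 0.22 and 0.55, called in neither. *Ifitm7* was called with ACs in SjSS (2.42), with CpG in B6 (3.02) and SjSS (4.15) and for the strain and AC interaction (2.38), for which *Ifitm6* was also called (1.78).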

How the data were processed

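The values the authors deposited were estimated counts for each gene, made by aligning paired-end reads to mm10 with STAR and quantifying them with the E/M tool of Partek, and were not normalized. The submitters' processing notes also name DESeq2 with version 3.13. About 41.1% of these estimates were fractional (tolerance 1e-06), and all were rounded before testing. Such a tool assigns reads shared by near-identical genes by estimate. Samples were grouped by their titles. In R 4.3.3, edgeR 4.0.16 was used with filterByExpr (15789 of 20615 genes kept), TMM scaling, a mean for each of 6 groups fitted to all 18 samples and the quasi-likelihood test, with Benjamini-Hochberg adjustment over all genes tested in each of 9 comparisons. Calls needed both thresholds of the study's methods, 0.05 for the adjusted p and 1.3 for the size of the log2 fold change. The standard error was the log2 fold change divided by the square root of F, and 95% intervals used 12 residual degrees of freedom. CPM used TMM scaled totals.

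Sequences, exon lengths and identities came from GENCODE M21 and RefSeq, read in Python 3.11.15 with biopython 1.88, numpy 2.4.6 and pandas 2.3.3, and figures were drawn with matplotlib 3.10.9. Named genes were the members, 5 related lists, the 4 nearest genes of the table on each side of the cluster, genes of the table named Ifit or lying within the cluster, and the 5 genes most correlated with each member (log2 CPM, prior count 2). The members and lists were chosen with earlier results of these data known. *Ifna4* of the pathway list and 3 of 6 neutrophil markers were not analysed, and 1 further gene of the pathway list is not reported here. The other marker lists summed to 9.41 to 26.8 CPM for B cells and at most 0.426 for NK cells. Same-numbered samples deviated together most clearly for control and CpG treated B6 (r of 0.133 to 0.263 in all 3 pairs), where the numbers were taken to pair samples. Of the 21 same-numbered pairs compared, some of which were between strains and cannot share a mouse, 10 correlated best with their own number. All 10 were within a strain, where only numbers 2 and 3 of control with AC treated B6 did not. The 10 included every pair of control with AC treated SjSS (r of 0.021 to 0.096) and with CpG treated SjSS (0.050 to 0.149). This comes from the data, not the labels, and the main fit did not pair samples. The alternatives were DESeq2 1.42.0, its size factors, other filters, no fold threshold, only the groups compared, replicate blocks, near-identical genes summed and each sample left out. The pipeline was tested on simulated counts with 200 genes changed.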

Additional observations from a re-analysis of the deposited data

Results flagged for a closer look

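The responses of the IFIT genes differed between the strains when the difference itself was tested, by an interaction term in edgeR's quasi-likelihood fit. For ACs the difference of the log2 response, SjSS minus B6, was 2.96 for *Ifit1*, 3.55 for *Ifit2*, 2.54 for *Ifit3*, 2.59 for *Ifit3b* and 4.09 for *Ifit1bl1*. For CpG it was -1.76 for *Ifit1*, -1.28 for *Ifit2*, -1.51 for *Ifit3*, -1.71 for *Ifit3b* and -1.65 for *Ifit1bl1*, so that the same strain had the larger response to one treatment and the smaller to the other. *Ifit2* passed the adjusted p for CpG but not the fold threshold. ACs and CpG differed in duration, and the AC and CpG interactions share the control samples, in which the members were higher in SjSS.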

How the results depend on the processing

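The number of members called stayed within 1.5 times its value under the alternatives run for 8 of the 9 comparisons. The exception was the strain difference without treatment, which went from 0 to 5 members with no fold threshold and ranged from 0 to 2 when 1 sample was left out (1 without B6 control replicate 1, 2 without SjSS control replicate 1, 1 without SjSS control replicate 3). With 1 sample left out the CpG response in SjSS ranged from 4 to 5 members called and the CpG interaction from 3 to 5. The difference between CpG treated strains, not called for any member, changed sign for *Ifit2* without CpG treated B6 replicate 2 (0.08) and without CpG treated SjSS replicate 2 (0.13), and for *Ifit3* without CpG treated B6 replicate 2 (0.0078), and over the samples left out it ran from -0.37 to 0.13 for *Ifit2* and from -0.55 to 0.0078 for *Ifit3*. *Ifit3b* was called for CpG in SjSS without SjSS control replicate 2 (1.47) or without CpG treated SjSS replicate 2 (1.52). *Ifit2* was called for the CpG interaction by DESeq2 (-1.31). The cause was not tested. The replicate block, over strains or within a strain, changed no call of a member: with it 5 members were called for ACs in B6, 5 for ACs in SjSS, 5 for CpG in B6 and 4 for CpG in SjSS. Over the 21 same-numbered pairs compared, which include pairs between the strains, the correlation of deviations ran from -0.06 to 0.26. Of the named genes outside the family, 227 calls were repeated under 5 settings, and 1133 of 1135 repeats kept the call. The exceptions were *Ifih1* in B6 with ACs, with no filter and with the replicate block. With 3 samples a group, fold changes of genes with few counts, such as *Ifnb1* and *Ifit1bl2*, carry wide errors.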
